A study of Mus musculus with 18 samples.

Results

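Collagen chain genes encode the subunits of the collagen triple helix. Members were the rows of the deposited count table annotated as protein coding whose symbol has the form Col, a type number, a and a chain number. This gave 44 genes of the 55385 in the table. Of these, 37 had at least 10 counts summed over the 18 libraries and are reported here, and 7 fell short of that minimum. The members lie on 15 chromosomes in GENCODE M21 of the GRCm38 build, and each of the 44 was found in that annotation. The deposited counts are named for GENCODE M24, so positions and overlaps were read from another release than that of the counts. Another annotated gene overlaps 24 of the reported chains, and no label states whether the authors counted by strand.

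Collagens are made of 3 chains wound into a triple helix in the endoplasmic reticulum, where prolines and lysines are hydroxylated. Fibrillar collagens are secreted as procollagens, trimmed at both ends and cross-linked into fibrils, collagen IV builds the sheet of basement membranes, and collagen VI forms beaded filaments. In the liver the fibrillar chains are made mainly by stellate cells and portal fibroblasts, and their accumulation is the hallmark of fibrosis, while hepatocytes are known as a main source of collagen XVIII.

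RNA came from whole mouse livers, with poly-A selection, strand-specific libraries and paired reads of 150 bases. The 3 groups held 6 mice each, with 3 females and 3 males per group, aged 17.1 to 18.0 weeks, and the labels give no treatment. Dp16-2xIFNRs mice carry the Dp16 duplication with the dosage of the interferon receptor genes normalized, per their label. Dp16 mice carry, in addition to the normal pair of copies, a duplicated segment of chromosome 16 that corresponds to much of human chromosome 21, and they are used as a model of Down syndrome. The wild-type mice were C57BL/6J. The labels do not say how the mice were bred or housed, and p-values measure the spread between these samples.

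Total counts ran from 38236222 to 59923315 per library. Libraries Dp16 4 and Dp16 5 stood apart from the rest across all genes. Dp16 4 held the highest value of the 18 libraries for 17.2% of the tested genes and Dp16 5 for 15.6%, against 1.7% to 6.5% in each other library. Both were from mice of 17.1 weeks, as was wild-type 6. Counts and calls below are also given without them where leaving them out changes a call. The interferon receptor gene Ifnar1, which lies in the duplicated segment, averaged 23.1 ± 3.15 CPM (counts per 1e6 scaled counts) in Dp16-2xIFNRs, 33.6 ± 7.05 CPM in Dp16 and 22.3 ± 2.32 CPM in wild-type livers (SD, n = 6 each). All 6 Dp16 libraries were above all 6 wild-type libraries for Ifnar1, with an adjusted p of 0.28 in edgeR's quasi-likelihood test. Of all tested genes, 0.138% were higher in Dp16 than in wild-type livers without overlap. For the receptor genes Ifnar2, Ifngr2 and Il10rb the Dp16 and wild-type ranges overlapped. Their log2 fold changes were 0.518, 0.388 and 0.751, with adjusted p of 0.246, 0.999 and 0.397 by the same test.

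No collagen chain gene lies in that segment of chromosome 16. Col8a1 is on chromosome 16 but outside it. Col6a1, Col6a2 and Col18a1 have their human counterparts on chromosome 21, but in the mouse they are on chromosome 10 and are not part of the duplication, so Dp16 carries no extra copy of any member.

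Collagen levels in liver were dominated by Col18a1 (chr10:77052178-77166548, minus strand). Levels of different chains are compared in the RPKM deposited by the authors, which correct for gene length and for the column total. Col18a1, the chain of collagen XVIII whose C-terminal fragment is endostatin, averaged 103.6 RPKM over the 18 libraries. Its share of the summed RPKM of all members was 74.3% ± 4.67 in Dp16-2xIFNRs, 72.8% ± 9.01 in Dp16 and 78.8% ± 4.33 in wild-type livers (SD, n = 6 each), and it ran from 56.5% to 84.5% over the single libraries.

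The next chains were far lower on the same scale. Col3a1, the chain of the fibrillar collagen III, averaged 6.45 RPKM, and Col14a1, a chain that sits on the surface of fibrils, averaged 5.41 RPKM. The basement membrane pair Col4a1 and Col4a2 averaged 3.94 and 2.62 RPKM. Of the collagen I pair, Col1a2 averaged 2.55 RPKM and Col1a1 averaged 1.80 RPKM. Col6a1 averaged 1.93 RPKM, Col15a1 averaged 1.25 RPKM and Col6a2 averaged 1.09 RPKM. These 10 chains were the members at 1 RPKM or above, 9 more lay between 0.1 and 1 RPKM, and 18 reported chains were below 0.1 RPKM.

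**Figure D1:**
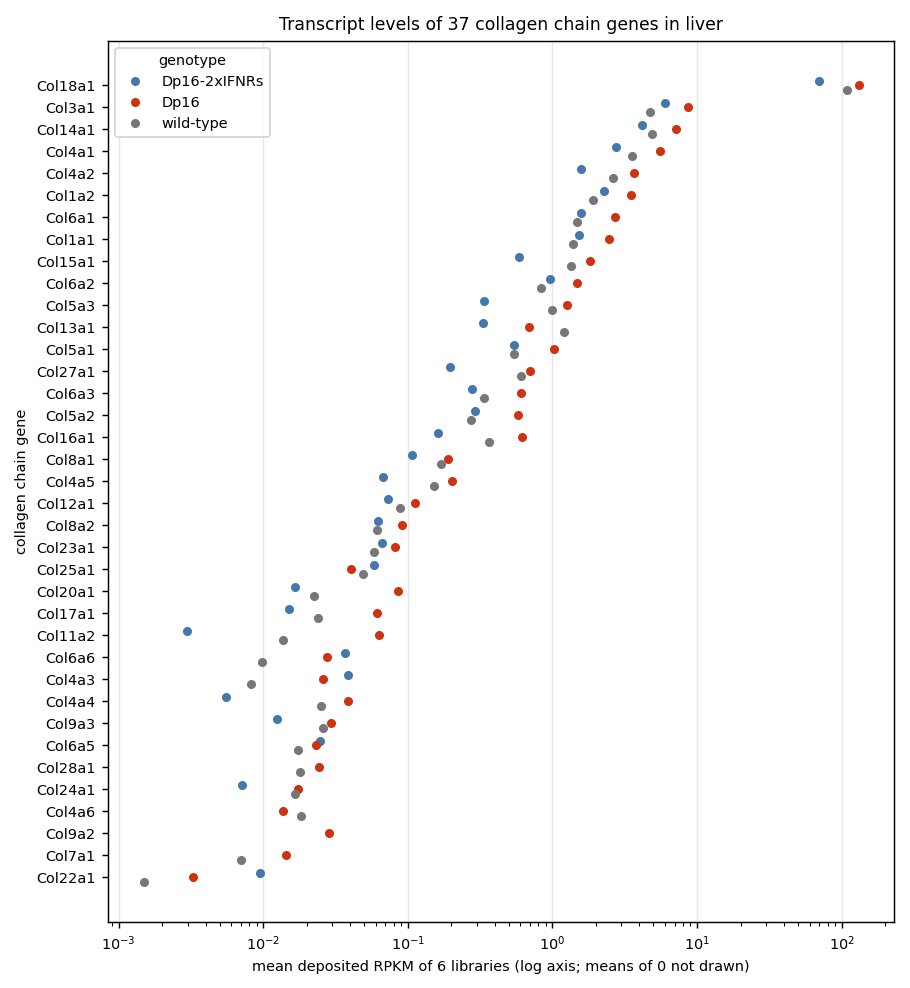
Mean deposited RPKM of the 37 reported collagen chain genes (log axis) in Dp16-2xIFNRs, Dp16 and wild-type livers, 6 libraries each, ordered by the mean over all 18. Col18a1 averaged 103.6 RPKM over all libraries, and the chain after it, Col3a1, averaged 6.45 RPKM.

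The least detected chains were at 0 to 7 counts. Col2a1, the main chain of cartilage fibrils, had 1 count in all 18 libraries together, and Col10a1, Col11a1 and Col26a1 had 0. Col9a1 had 7 counts, Col6a4 had 4 and Col19a1 had 2. Another 11 chains had at least 10 counts but did not pass the low-count filter and were not tested: Col4a4, Col4a6, Col7a1, Col9a2, Col9a3, Col11a2, Col17a1, Col20a1, Col22a1, Col24a1 and Col28a1. Their summed counts ran from 23 for Col9a2 to 209 for Col4a4 and Col20a1, and each was at 0 counts in at least 5 of the 18 libraries. The other 26 chains were tested. Chains that passed the filter through one group only are among them, so counts over the 26 describe the tested chains and not all members.

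Promoter sequences are shown for 4 of the most abundant chains. Col1a2 and Col3a1 are the most abundant fibrillar chains, and Col4a1 and Col4a2 are a pair on opposite strands whose annotated start sites lie 21 bases apart on chromosome 8, so that their windows share 78 bases. The windows run from 250 bases before to 50 bases after the start in RefSeq (GRCm38.p6), read 5′ to 3′ on the strand of the gene. Their positions are chr6:4505368-4505667 on the plus strand for Col1a2, chr1:45311288-45311587 on the plus strand for Col3a1, chr8:11312777-11313076 on the minus strand for Col4a1 and chr8:11312555-11312854 on the plus strand for Col4a2. Capitals mark the motif CCAAT with its reverse complement ATTGG, the motif TATAAA with its reverse complement TTTATA, and the motif GGGCGG with its reverse complement CCGCCC, and none of the marked runs in these windows overlaps another.
Col1a2 promoter: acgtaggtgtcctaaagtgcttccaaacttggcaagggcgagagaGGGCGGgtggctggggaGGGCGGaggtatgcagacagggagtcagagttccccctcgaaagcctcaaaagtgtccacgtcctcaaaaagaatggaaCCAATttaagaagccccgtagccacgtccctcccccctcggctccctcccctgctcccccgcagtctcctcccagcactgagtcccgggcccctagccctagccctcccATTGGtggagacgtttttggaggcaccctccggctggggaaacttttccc
Col3a1 promoter: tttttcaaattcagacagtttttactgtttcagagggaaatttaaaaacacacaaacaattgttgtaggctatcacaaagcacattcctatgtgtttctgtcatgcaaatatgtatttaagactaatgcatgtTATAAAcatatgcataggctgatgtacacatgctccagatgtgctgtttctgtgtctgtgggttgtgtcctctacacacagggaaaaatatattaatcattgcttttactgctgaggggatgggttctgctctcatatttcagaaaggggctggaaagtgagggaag
Col4a1 promoter: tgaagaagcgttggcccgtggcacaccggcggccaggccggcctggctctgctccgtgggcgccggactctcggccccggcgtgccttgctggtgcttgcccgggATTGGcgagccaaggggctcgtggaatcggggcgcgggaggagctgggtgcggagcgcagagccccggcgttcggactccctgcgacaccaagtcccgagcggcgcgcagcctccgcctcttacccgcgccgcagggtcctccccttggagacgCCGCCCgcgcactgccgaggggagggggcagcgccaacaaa
Col4a2 promoter: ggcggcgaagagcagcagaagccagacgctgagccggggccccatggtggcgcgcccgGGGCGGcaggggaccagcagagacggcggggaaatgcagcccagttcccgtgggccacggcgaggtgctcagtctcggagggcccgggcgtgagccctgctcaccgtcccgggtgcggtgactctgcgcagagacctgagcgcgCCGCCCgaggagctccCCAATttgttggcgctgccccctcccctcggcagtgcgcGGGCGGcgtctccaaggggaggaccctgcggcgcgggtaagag

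Col1a2 held CCAAT in both orientations and GGGCGG at 2 places, and 61% of its window was G or C. Col3a1 held a single TATAAA, 117 to 112 bases before the annotated start, with 37.7% G or C. In the collagen IV pair CCAAT was present once in each window, with 74% G or C for Col4a1 and 73.7% for Col4a2. Of all 32851 windows of the same length, 37.4% held CCAAT, 13.6% held TATAAA and 35.7% held GGGCGG in either orientation. Among the 30 reported chains with a window, 33.3%, 13.3% and 66.7% held them in the same order. A match says only that the letters are there.

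The comparison over the 3 genotypes asks whether chain transcripts differ with the duplication and with the dosage of the interferon receptors. Values below are CPM on library sizes scaled by TMM, and tests are edgeR's quasi-likelihood test with Benjamini-Hochberg adjustment over all 15208 tested genes. A gene was called at an adjusted p under 0.05. No chain was called in any of the 3 genotype comparisons. In Dp16-2xIFNRs against Dp16 0 of 26 chains were called, against 0% of all genes. In Dp16-2xIFNRs against wild-type 0 of 26 were called, against 0.0986% of all genes, and in Dp16 against wild-type 0 of 26, against 0.0395% of all genes. The joint test over the 3 genotypes called 0 of 26, against 0.046% of all genes, with 11 of 26 at an unadjusted p under 0.05, against 7.48% of all genes. Its lowest adjusted p among the chains was 0.243 by edgeR, for Col5a3.

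Single chains passed an unadjusted p under 0.05 in 1 direction per comparison. In Dp16-2xIFNRs against Dp16 11 of 26 were lower at that level, against 7.11% of all genes lower. In Dp16-2xIFNRs against wild-type 5 of 26 were lower, against 5.23% of all genes. In Dp16 against wild-type 8 of 26 were higher, against 2.52% of all genes. DESeq2 called 1 chain, Col5a3, in Dp16-2xIFNRs against Dp16, 1 chain, Col15a1, in Dp16-2xIFNRs against wild-type and 0 in Dp16 against wild-type, and limma-voom called 0 in each. These comparisons share libraries, so their counts are not independent of each other.

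The direction of the fold changes was uneven among the chains. Chains of 1 library can move together, so counts over chains do not measure the spread between mice and are a description only. The cut at 0.1 RPKM used first was not planned, and the shares of all genes are not held to it. Of the 19 chains at or above 0.1 RPKM, all 19 had a log2 fold change below 0 in Dp16-2xIFNRs against Dp16, with a median of -0.71, and 51.9% of all genes were below 0. In Dp16 against wild-type 17 of 19 were above 0, with a median of 0.45, against 51.4% of all genes. In Dp16-2xIFNRs against wild-type 12 of 19 were below 0, with a median of -0.26, against 52.6% of all genes. Medians over all genes were between -0.02 and 0.01 in these comparisons. Of all 26 tested chains, 21 were below 0 in Dp16-2xIFNRs against Dp16, with a median of -0.639. The other 5 were above 0, and all 5 were chains that the cut leaves out. In Dp16 against wild-type 22 of 26 were above 0, with a median of 0.425. In Dp16-2xIFNRs against wild-type 14 of 26 were below 0, with a median of -0.108.

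Library Dp16 5, from a female, was high across the chains. It held the highest value of the 18 libraries for 17 of the 26 tested chains, and all 26 were above the mean of the wild-type females in it, with a median log2 deviation of 1.35. In the other Dp16 libraries the median deviation from wild-type livers ran from -0.393 in Dp16 4 to 0.685 in Dp16 3. In TMM-scaled CPM the summed hepatocyte markers were lowest of all libraries in Dp16 5, at 71368 CPM, against up to 128517 CPM elsewhere. A higher TMM factor lowers every CPM of its library. The factor was highest in Dp16 5, at 1.34, and lowest in Dp16 4, at 0.803. The part of the markers and of the scaling in the result was not tested. Without Dp16 5, 14 of 19 chains were above 0 in Dp16 against wild-type, with a median of 0.28, and all 19 were below 0 in Dp16-2xIFNRs against Dp16, with a median of -0.54. Without both Dp16 4 and Dp16 5, 16 of 19 were above 0 in the first comparison, with a median of 0.36, and all 19 were below 0 in the second, with a median of -0.67.

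**Figure D2:**
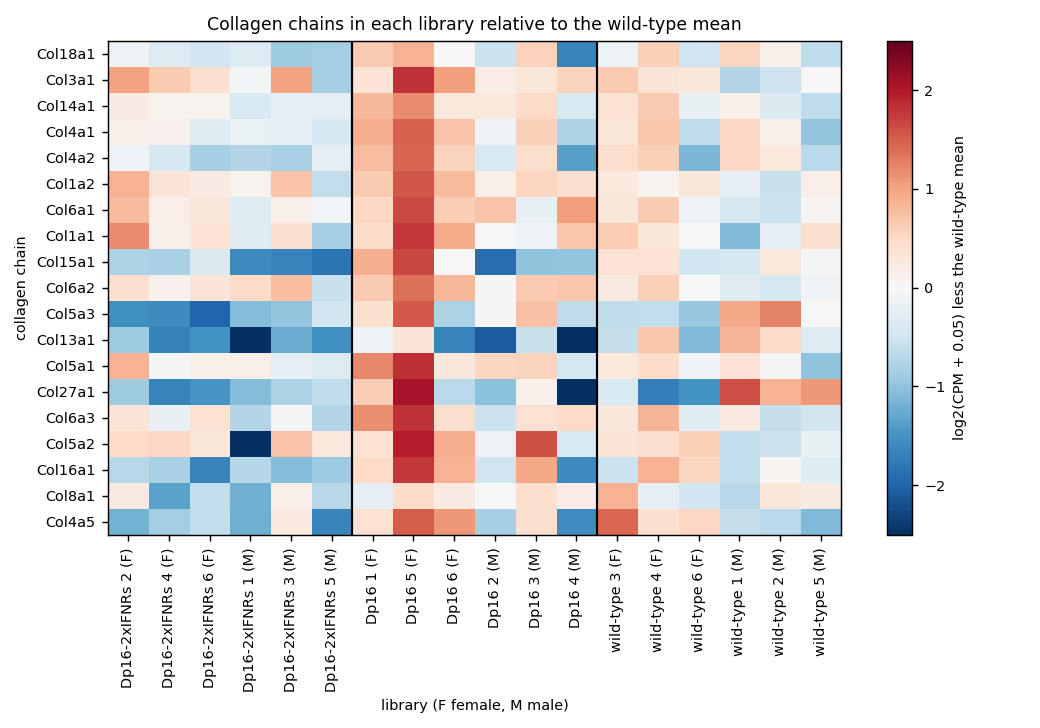
Heat map of the 19 chains at or above 0.1 RPKM in each library, as log2(CPM + 0.05) less the wild-type mean, with females before males in each genotype. Colours are capped at 2.5 in either direction. Dp16 5 is above the wild-type mean for each of the 19 chains, and Col15a1, Col5a3, Col13a1, Col16a1 and Col27a1 are among the chains below it in all 6 Dp16-2xIFNRs libraries.

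Fibrillar chains form the rope-like fibrils that take up pull in tissue. Col1a2, the second chain of collagen I, had 6.49, 12.0 and 18.4 CPM (lowest, median and highest) in Dp16-2xIFNRs, 11.2, 15.1 and 29.5 CPM in Dp16 and 6.73, 10.8 and 12.1 CPM in wild-type livers. The highest value was Dp16 5, and the other Dp16 libraries lay between 11.2 and 17.2 CPM, so the groups overlapped. The log2 fold change was -0.39 ± 0.218 (SE) in Dp16-2xIFNRs against Dp16 and 0.71 ± 0.219 in Dp16 against wild-type. All 6 Dp16 libraries were above the wild-type mean, with an adjusted p of 0.522 by edgeR.

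Col3a1 showed the same order of group means. It averaged 34.5 ± 14.2 CPM in Dp16-2xIFNRs, 43.6 ± 22.4 CPM in Dp16 and 26 ± 9.06 CPM in wild-type livers (SD, n = 6 each). The lowest library of all was a Dp16-2xIFNRs male at 13.7 CPM and the highest was Dp16 5 at 86.4 CPM, with overlap between all groups. In Dp16 against wild-type the log2 fold change was 0.75 ± 0.267, above the wild-type mean in 6 of 6 libraries (adjusted p = 0.738, edgeR). Col1a1, the first chain of collagen I, averaged 9.43 ± 4.55, 13.2 ± 7.06 and 8.26 ± 2.97 CPM in Dp16-2xIFNRs, Dp16 and wild-type livers. Col5a1 and Col5a2, which form the collagen V that starts fibrils, had log2 fold changes of 0.71 and 0.95 in Dp16 against wild-type, with adjusted p of 0.876 and 0.999 by edgeR.

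Col5a3 (chr9:20770050-20815067, minus strand) is another chain of collagen V. It had 1.23, 2.02 and 3.58 CPM (lowest, median and highest) in Dp16-2xIFNRs, 2.87, 5.90 and 14.6 CPM in Dp16 and 2.58, 4.18 and 12.0 CPM in wild-type livers. Each Dp16-2xIFNRs library was below the mean of either other group, and the ranges overlapped. The log2 fold change was -1.80 ± 0.419 in Dp16-2xIFNRs against Dp16, with adjusted p = 0.532 by edgeR, and -1.39 ± 0.41 against wild-type, with adjusted p = 0.288. DESeq2 gave an adjusted p of 0.0275 against Dp16. Without Dp16 4 and Dp16 5 the edgeR test against wild-type gave an adjusted p of 0.0456, and a fit of the Dp16-2xIFNRs and wild-type libraries alone gave 0.0386. Col27a1, a fibrillar chain known from cartilage, averaged 1.56 ± 0.424, 4.43 ± 4.88 and 4.62 ± 3.68 CPM in Dp16-2xIFNRs, Dp16 and wild-type livers, and its values by sex are given below.

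**Figure D3:**
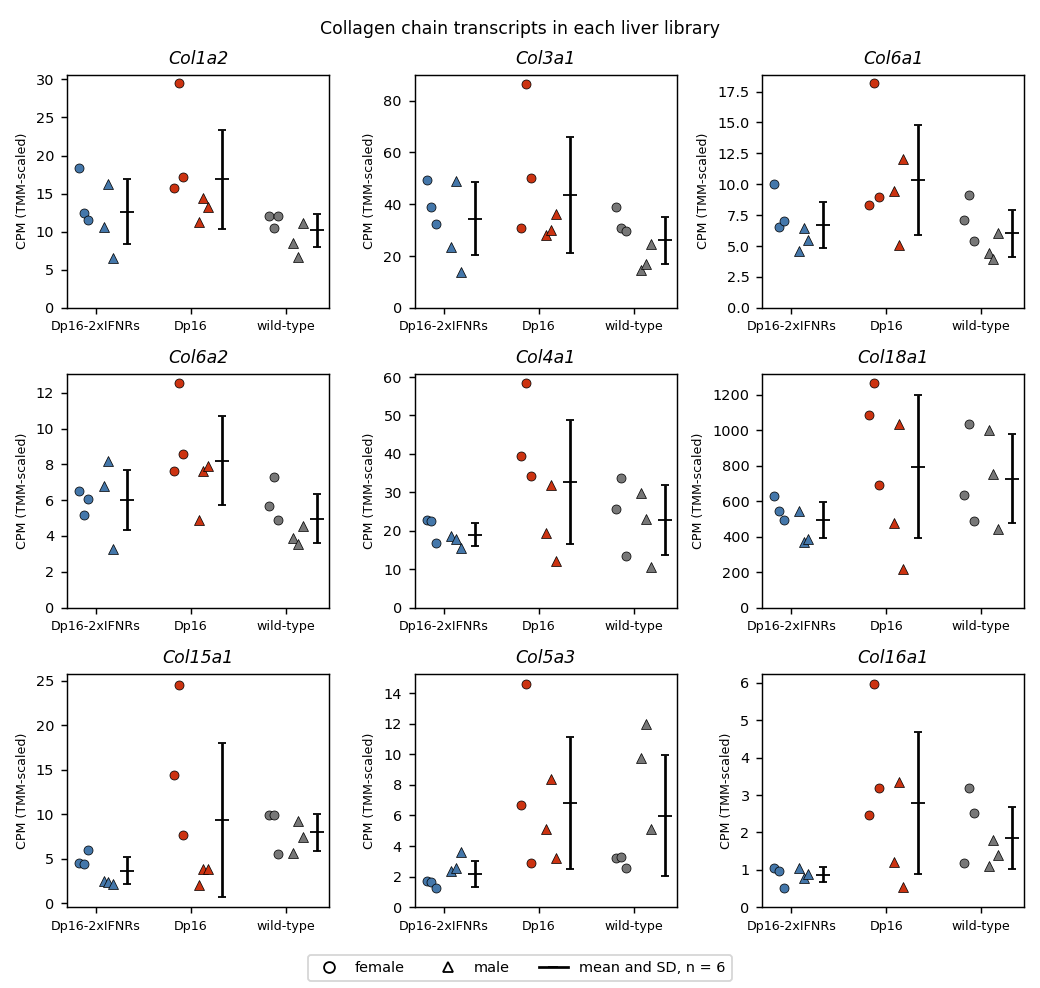
CPM (TMM-scaled) of 9 collagen chains in each library of Dp16-2xIFNRs, Dp16 and wild-type livers; circles are females, triangles males, and bars the mean and SD of 6. The highest point of Col1a2, at 29.5 CPM, is Dp16 5, and the 6 Dp16-2xIFNRs points of Col16a1 lie below the 6 wild-type points.

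The basement membrane chains Col4a1 and Col4a2 are the subunits of the collagen IV found under nearly all epithelia and vessels. Col4a1 had 15.4, 18.1 and 22.8 CPM (lowest, median and highest) in Dp16-2xIFNRs, 12.2, 33.1 and 58.3 CPM in Dp16 and 10.5, 24.3 and 33.6 CPM in wild-type livers. The Dp16-2xIFNRs libraries lay close together inside the range of both other groups. The log2 fold change of Col4a1 in Dp16-2xIFNRs against Dp16 was -0.72 ± 0.287, and that of Col4a2 was -0.90 ± 0.347, each with an adjusted p of 0.532 by edgeR. Col4a2 averaged 10.6 ± 2.40 CPM in Dp16-2xIFNRs, 20.9 ± 12.1 CPM in Dp16 and 16.3 ± 6.70 CPM in wild-type livers. Of the other collagen IV chains, Col4a5 had log2 fold changes of -1.05 ± 0.522 in Dp16-2xIFNRs against Dp16 and 0.28 ± 0.497 in Dp16 against wild-type, Col4a3 had SEs of 1.34 or more, neither was called, and Col4a4 and Col4a6 were too low to test.

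Collagen VI chains link fibrils to cells. Col6a1 had 4.62, 6.50 and 10.0 CPM (lowest, median and highest) in Dp16-2xIFNRs, 5.08, 9.23 and 18.2 CPM in Dp16 and 3.96, 5.74 and 9.17 CPM in wild-type livers. Its ranges overlapped, and 5 of 6 Dp16 libraries were above the wild-type mean. Its log2 fold change in Dp16 against wild-type was 0.79 ± 0.24, with adjusted p = 0.498 by edgeR, the smallest of the chains in that comparison. Col6a2, its partner, averaged 6.00 ± 1.67 CPM in Dp16-2xIFNRs, 8.20 ± 2.48 CPM in Dp16 and 4.97 ± 1.36 CPM in wild-type livers, with a log2 fold change of 0.73 ± 0.228 in Dp16 against wild-type (adjusted p = 0.554). Col6a3, a longer chain of the same trimer, averaged 3.12 ± 1.03 CPM in Dp16-2xIFNRs, 5.87 ± 3.34 CPM in Dp16 and 3.57 ± 1.48 CPM in wild-type livers. Of the 5 tested collagen VI chains, all 5 had a log2 fold change above 0 in Dp16 against wild-type, with a median of 0.73. Among them Col6a6, another alternative chain, had 1.43 ± 1.03, and 1.97 ± 1.05 in Dp16-2xIFNRs against wild-type.

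The chains that sit on fibrils are called FACIT collagens. Col16a1 (chr4:130047840-130099283, plus strand) had 0.505, 0.929 and 1.05 CPM (lowest, median and highest) in Dp16-2xIFNRs, 0.546, 2.82 and 5.97 CPM in Dp16 and 1.11, 1.59 and 3.18 CPM in wild-type livers. Of the 26 tested chains it was the only one whose groups did not overlap in a genotype comparison: each Dp16-2xIFNRs library was below each wild-type library. Of all tested genes, 0.375% were lower without overlap in that comparison. The log2 fold change was -1.02 ± 0.412 against wild-type, with adjusted p = 0.523 by edgeR, and -1.56 ± 0.418 against Dp16, with adjusted p = 0.532. Col14a1 averaged 28.1 ± 4.53 CPM in Dp16-2xIFNRs, 42.05 ± 15.2 CPM in Dp16 and 30.8 ± 10.3 CPM in wild-type livers, and all 6 Dp16-2xIFNRs libraries were below the Dp16 mean. Col12a1, the other tested FACIT chain, had log2 fold changes from -0.45 to 0.25 in the genotype comparisons.

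The multiplexins, collagen XV and collagen XVIII, are proteoglycans of basement membranes. Col15a1 (chr4:47208161-47313167, plus strand) had 2.14, 3.46 and 6.02 CPM (lowest, median and highest) in Dp16-2xIFNRs, 2.03, 5.78 and 24.6 CPM in Dp16 and 5.49, 8.38 and 9.95 CPM in wild-type livers. Of the Dp16-2xIFNRs libraries only the highest reached into the wild-type range. The log2 fold change was -1.29 ± 0.354 against wild-type, with adjusted p = 0.242 by edgeR, and -1.16 ± 0.355 against Dp16. DESeq2 gave an adjusted p of 0.0362 against wild-type, and a fit of the Dp16-2xIFNRs and wild-type libraries alone gave 0.0453. Col18a1 averaged 495 ± 99.97 CPM in Dp16-2xIFNRs, 795 ± 402 CPM in Dp16 and 727 ± 253 CPM in wild-type livers. Its Dp16 libraries ran from 218 CPM in Dp16 4 to 1264 CPM in Dp16 5, and no comparison of it passed the test.

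Of the transmembrane chains, Col13a1 averaged 1.11 ± 0.49 CPM in Dp16-2xIFNRs, 1.90 ± 1.55 CPM in Dp16 and 3.74 ± 1.88 CPM in wild-type livers. Collagen XIII is a membrane protein of cell contacts. Its log2 fold change in Dp16-2xIFNRs against wild-type was -1.82 ± 0.574, the largest in size of the chains at or above 0.1 RPKM there, with adjusted p = 0.354 by edgeR. Col23a1 and Col25a1 had log2 fold changes between -0.41 and 0.78 with SEs from 0.834 to 1.19, and Col8a1 and Col8a2 of the network-forming class between -0.68 and 0.41, with no call.

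**Figure D4:**
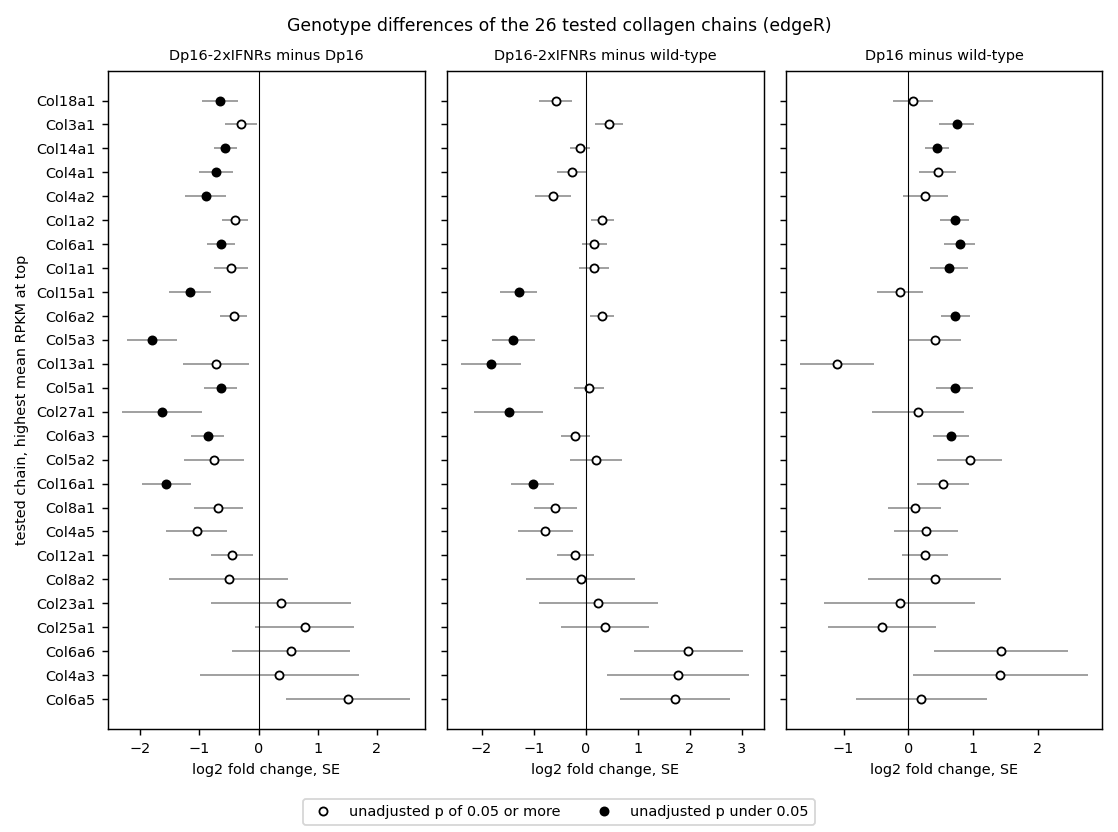
Log2 fold changes with SE of the 26 tested chains in Dp16-2xIFNRs against Dp16, Dp16-2xIFNRs against wild-type and Dp16 against wild-type (edgeR), ordered by mean RPKM. Filled points have an unadjusted p under 0.05: 11, 5 and 8 chains in that order, and none had an adjusted p under 0.05.

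Chains that build 1 heterotrimer were compared as RPKM ratios within each library. The ratio of Col4a1 to Col4a2 was 1.79 ± 0.337 in Dp16-2xIFNRs, 1.61 ± 0.229 in Dp16 and 1.39 ± 0.296 in wild-type livers (SD, n = 6 each). Its difference in log2 was 0.36 between Dp16-2xIFNRs and wild-type, with p = 0.0649 by exact permutation of the libraries (two-sided) and 0.779 after adjustment over 12 comparisons, the lowest of the 12. The collagen I ratio, Col1a1 to Col1a2, was 0.655 ± 0.129, 0.685 ± 0.15 and 0.73 ± 0.209 in Dp16-2xIFNRs, Dp16 and wild-type livers. The ratio of Col6a1 to Col6a2 was 1.74 ± 0.586 in Dp16-2xIFNRs, 1.88 ± 0.648 in Dp16 and 1.76 ± 0.138 in wild-type livers. The ratio of Col5a1 to Col5a2 was 55.7 in Dp16-2xIFNRs 1 and between 1 and 2.5 in the other 5 libraries of that group, where Col5a2 had 3 counts in Dp16-2xIFNRs 1 against 84 to 131 in the others.

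Several chains were higher in females. Between the 9 females and the 9 males 4 of 26 chains were called higher in females and 0 lower, while 3.16% of all genes were called higher and 3.41% lower. The 4 were Col6a5, Col15a1, Col14a1 and Col6a3. By limma on log2(RPKM + 1) none of the 4 was called. With the number in the sample descriptions as a random block only Col6a5 was called, and the adjusted p was 0.081 for Col15a1, 0.0691 for Col14a1 and 0.0928 for Col6a3. Of the 26 chains, 20 had a log2 fold change above 0, with a median of 0.51, and 52.4% of all genes did. The median was 0.404 without Dp16 5, and 0.337 without both Dp16 4 and Dp16 5, where 20 of 26 were above 0. Without Dp16 4 and Dp16 5 Col15a1 and Col6a5 were called higher in females, and Col5a3 was called lower in females, with a log2 fold change of -1.04 (adjusted p = 0.0122, edgeR) against -0.64 with all libraries. Col14a1 and Col6a3 were then not called, with adjusted p of 0.102 and 0.0854.

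Col6a5 (chr9:105856078-105960643, minus strand), a rare alternative chain of collagen VI, was near the limit of detection. In females it had 12, 13 and 29 counts in Dp16-2xIFNRs, 8, 23 and 41 counts in Dp16 and 6, 14 and 28 counts in wild-type livers. In males it had 8 counts in 1 Dp16-2xIFNRs library and 0 in the other 8. The sexes thus overlapped only through that library, and the log2 fold change was 4.62 ± 0.963 with adjusted p = 0.00451 by edgeR. The sums were 174 counts in females and 8 counts in males.

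Col15a1 averaged 9.66 ± 6.46 CPM in females and 4.37 ± 2.59 CPM in males (SD, n = 9 each). Its log2 fold change was 1.16 ± 0.296 with adjusted p = 0.0208 by edgeR, and 9 of 9 females were above the male mean. The difference was uneven over the genotypes. Females had 4.37, 4.54 and 6.02 CPM and males 2.14, 2.40 and 2.55 CPM in Dp16-2xIFNRs. Females had 7.67, 14.4 and 24.6 CPM and males 2.03, 3.85 and 3.88 CPM in Dp16. In wild-type livers females had 5.49, 9.90 and 9.95 CPM and males 5.70, 7.50 and 9.27 CPM, so that the sexes overlapped in wild-type livers and did not in the other genotypes. Each of these is 3 libraries against 3, with no share of all genes beside it, so the separation is a description only.

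Col14a1 averaged 40.0 ± 12.7 CPM in females and 27.3 ± 7.33 CPM in males, a log2 fold change of 0.54 ± 0.155 with adjusted p = 0.0424 by edgeR. Col6a3 averaged 5.36 ± 2.83 CPM in females and 3.02 ± 1.08 CPM in males, a log2 fold change of 0.78 ± 0.23 with adjusted p = 0.0483. Both were close to the threshold: Col14a1 lost its call in 14 and Col6a3 in 13 of the 18 fits that each left out 1 library. The fibrillar chains Col3a1 and Col1a1 missed it, with log2 fold changes of 0.71 ± 0.218 and 0.74 ± 0.239 and adjusted p of 0.0587 and 0.0746, and 9 of 9 females were above the male mean for each. DESeq2 called both, and limma-voom called both. Col6a3 lost its call by limma-voom (adjusted p = 0.0531) and with age as a further term in edgeR (adjusted p = 0.0583). On log2(RPKM + 0.1) limma called neither Col6a3 (adjusted p = 0.0763) nor Col14a1 (adjusted p = 0.0533). With no low-count filter edgeR gave Col14a1 an adjusted p of 0.0501.

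Whether the genotype difference of a chain depended on sex was tested as an interaction. For Dp16 against wild-type 0 of 26 chains and 0% of all genes were called, and 3 chains had an unadjusted p under 0.05, all above 0, against 3.18% of all genes. These were Col27a1, Col15a1 and Col5a3, named after their values were seen. For Dp16-2xIFNRs against wild-type 0 of 26 chains and 0% of all genes were called, with an unadjusted p under 0.05 for Col4a5 alone, which was below 0, against 1.17% of all genes. DESeq2 called 1 chain in the first and 0 in the second, and limma-voom none.

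Col27a1 had the largest interaction of the tested chains, 4.20 ± 0.922 in log2, with adjusted p = 0.388 by edgeR and adjusted p = 0.00645 by DESeq2. Dp16 females had 2.04, 5.03 and 13.8 CPM, and wild-type females had 0.965, 1.13 and 2.503 CPM. Dp16 males had 0.486, 1.57 and 3.60 CPM, and wild-type males had 6.05, 6.97 and 10.1 CPM. In males the 2 genotypes thus did not overlap, with Dp16 lower, and in females they overlapped. With 3 libraries on each side and no share of all genes to set beside it, this separation is a description only. Without Dp16 4 and Dp16 5 the interaction was 2.78, with adjusted p = 1 by edgeR.

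**Figure D5:**
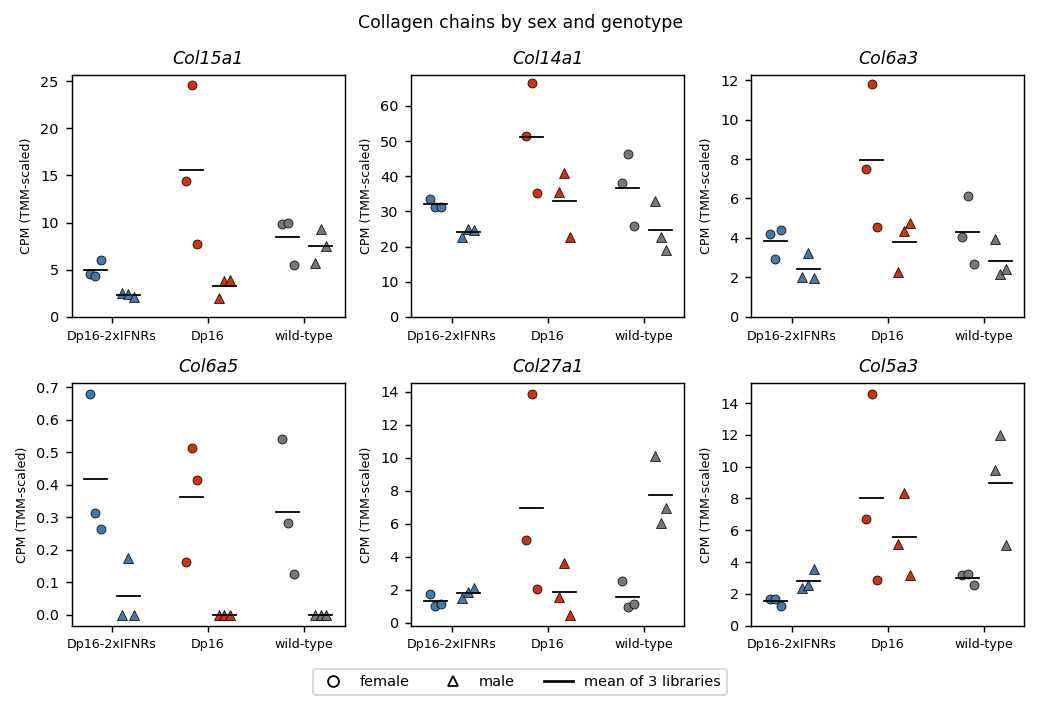
CPM (TMM-scaled) of 6 chains in females (circles) and males (triangles) of Dp16-2xIFNRs, Dp16 and wild-type livers, 3 libraries each, with the mean as a line. Col6a5 is at 0 CPM in 8 of 9 males, and Col27a1 in wild-type males lies between 6.05 and 10.1 CPM, above all wild-type females. With 3 libraries on each side and no share of all genes beside it, this separation of Col27a1 is a description only.

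Genes that make, trim, break down or sense collagen were read beside the chains. By edgeR none of them was called in a genotype comparison. Of those with the smallest p, DESeq2 called Bgn, a small proteoglycan that binds collagen, in Dp16 against wild-type (log2 fold change 0.44, adjusted p = 0.0373) and Pcolce2, an enhancer of procollagen cleavage, in Dp16-2xIFNRs against wild-type (-1.16, adjusted p = 0.0154), against edgeR's adjusted p of 0.451 and 0.183. Of all genes, 47.4% had a log2 fold change above 0 in Dp16-2xIFNRs against wild-type and 51.4% in Dp16 against wild-type. Of 19 tested genes for folding and modification of chains, 12 were above 0 in Dp16-2xIFNRs against wild-type and 14 in Dp16 against wild-type. Of 15 for propeptide cleavage and cross-linking, 11 and 12 were above 0 in these comparisons, and among them Adamts2, which removes the N-terminal propeptide, had log2 fold changes of 0.82 ± 0.235 and 0.78 ± 0.235 (adjusted p of 0.255 and 0.498, edgeR). Of 12 for breakdown and its inhibitors, 9 and 11 were above 0, with Timp3, an inhibitor of matrix proteases, at log2 fold changes of 0.15 ± 0.131 and 0.44 ± 0.131. Of 8 collagen receptors 4 and 8 were above 0, and of 17 genes of TGF-beta and PDGF signalling 10 and 12. Between the sexes 1 of these genes was called, against 6.56% of all genes: Mmp14, a membrane-bound protease that cleaves collagen, had a log2 fold change of 0.73 ± 0.206 in females against males (adjusted p = 0.0388, edgeR), and 9 of 9 females were above the male mean. Without Dp16 4 and Dp16 5 Mmp14 was not called (0.66, adjusted p = 0.0683).

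Markers of the cell types that a piece of liver can hold were read beside these results. In bulk tissue fewer cells of a type and less RNA per cell cannot be told apart. The summed level of 10 stellate cell markers ran from 231 to 344 CPM in Dp16-2xIFNRs, from 228 to 365 CPM in Dp16 and from 203 to 347 CPM in wild-type livers. By edgeR no marker of any list was called between genotypes, and 1 of the 10, Pdgfrb, also stands in the TGF-beta and PDGF list. Between the sexes the same sum averaged 331 ± 24.9 CPM in females and 249.4 ± 33.8 CPM in males, and 10 of 10 markers were above 0 in log2 fold change, of which 1, Hgf, was called (0.88 ± 0.227, adjusted p = 0.0223, edgeR). Of all genes 52.4% were above 0 and 3.16% were called higher. The sum of 6 myofibroblast markers averaged 36.99 ± 6.39 CPM in females and 28.7 ± 9.67 CPM in males, with Postn, a matrix protein of activated fibroblasts, called higher in females (0.82 ± 0.211, adjusted p = 0.0231, edgeR). Without Dp16 4 and Dp16 5 neither was called, with 0.76 and adjusted p = 0.06 for Hgf and 0.75 and adjusted p = 0.0585 for Postn. The stellate sums ran from 284 to 365 CPM in females and from 203 to 315 CPM in males, and the myofibroblast sums from 28.3 to 47.3 CPM in females and from 18.9 to 44.9 CPM in males, so both overlapped. Most other lists were also higher in females. Means were 109089 against 93211 CPM in males for hepatocyte, 189.5 against 159.8 for sinusoidal and 40.8 against 32.8 for vascular endothelial markers. They were 58.5 against 46.2 for cholangiocyte, 10.5 against 7.39 for smooth muscle and 7.10 against 6.88 for cartilage and bone markers. The mesothelial sum was lower in females, at 1.31 against 2.26 CPM. The female excess was not particular to the stellate and myofibroblast lists. The part of these markers in the chain results was not tested.

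Sums for the other cell types overlapped between the genotypes. Sums are not weighted, so the most abundant marker of a list counts most. Over all libraries Spp1 had 37150 counts against 4034 for Sox9, the next cholangiocyte marker. Cdh5 had 23357 against 4712 for Rspo3 (vascular endothelial), and Smtn 5354 against 2305 for Myh11 (smooth muscle). Among the stellate cell markers Ecm1 had 111241 counts against 41141 for Rgs5. The 6 sinusoidal endothelial markers summed to 161 ± 19.2 CPM in Dp16-2xIFNRs, 191 ± 39.9 CPM in Dp16 and 171 ± 25.3 CPM in wild-type livers, highest in Dp16 5 at 249.3 CPM. The 4 vascular endothelial markers summed to 30.3 ± 4.97 CPM in Dp16-2xIFNRs, 41.7 ± 15.6 CPM in Dp16 and 38.4 ± 10.9 CPM in wild-type livers. The 5 cholangiocyte markers summed to 45.6 ± 8.53 CPM in Dp16-2xIFNRs, 52.0 ± 17.7 CPM in Dp16 and 59.5 ± 21.9 CPM in wild-type livers. For the 4 smooth muscle markers the sums were 8.62 ± 1.10 CPM in Dp16-2xIFNRs, 9.94 ± 4.20 CPM in Dp16 and 8.30 ± 2.55 CPM in wild-type livers. The 4 mesothelial markers summed to at most 4.41 CPM in any library. Of the cartilage and bone markers Acan had 6 counts, Bglap 4 and Ibsp 0 over all libraries, and Sox5 was the one gene of that list that was tested. The hepatocyte markers Alb, Ttr, Apoa1 and Serpina1c summed to between 71368 and 128517 CPM per library, the highest of the lists. How far the cell type sums, or the depth and composition of Dp16 4 and Dp16 5, took part in the genotype values was not tested.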

How the data were processed

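The authors deposited gene counts and RPKM for 18 liver libraries. Per the submitters' processing notes, bcl2fastq, FastQC 0.11.5, HISAT2 2.1.0, SAMtools 1.5, HTSeq 0.6.1 and the GRCm38 build were used; the strand setting and the handling of shared reads are not stated there. The deposited RPKM served for levels between chains. The deposited counts were tested with edgeR 4.0.16 (R 4.3.3, limma 3.58.1): genes kept by filterByExpr by group, TMM scaling, genotype and sex as terms, a robust quasi-likelihood fit of all 18 libraries, and Benjamini-Hochberg adjustment over 15208 genes, called at 0.05. The SE is the absolute log2 fold change over the square root of F. DESeq2 1.42.0 and limma-voom were alternatives, and ratios were tested by exact permutation (scipy 1.17.1, Python 3.11.15).

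Chains named with values were the 12 highest by mean RPKM, every called chain and the 4 smallest p in each genotype and sex comparison. Col27a1, Col5a1, Col5a2 and the low chains were named after their values were seen. The members and gene lists were chosen with earlier results of these data known. The test was checked on simulated data with known fold changes, where 25 of 67 genes changed 2-fold were called. Libraries with the same title number gave r from -0.449 to 0.342 (18 pairs, 8 over 0.1), and the 8 over 0.1 were the 8 pairs of the same sex. With sex removed they did not deviate together (r from -0.377 to 0.255, 5 over 0.1), so the numbers were not used as a block.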

Additional observations from a re-analysis of the deposited data

Results flagged for a closer look

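Col1a2 in Dp16 5 stood far from the other Dp16 livers, at 29.5 CPM against 11.2 to 17.2 CPM in the other 5. The RPKM ratio of Col5a1 to Col5a2 in Dp16-2xIFNRs 1 was 55.7, against 1 to 2.5 in the other 5 libraries of that genotype. These were 2 of 57 groups looked at, and chance flags about 1 in 20 groups.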

How the results depend on the processing

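Genes called numbered 0 in Dp16-2xIFNRs against Dp16, 15 in Dp16-2xIFNRs against wild-type, 6 in Dp16 against wild-type and 7 in the joint test. DESeq2 gave 7 in Dp16-2xIFNRs against Dp16, 127 in Dp16-2xIFNRs against wild-type and 72 in Dp16 against wild-type, and 1535 between the sexes against 998; limma-voom gave 11 in Dp16 against wild-type and 19 in the joint test. Dp16-2xIFNRs against wild-type gave 7 without a sex term, 43 with only those groups, 38 by limma on log2(RPKM + 0.1), 27 on log2(RPKM + 1) and 64 without Dp16 4 and Dp16 5. Dp16 against wild-type gave 3, 1, 11, 11 and 1 under the same settings. The joint test gave 3 without a sex term, 24 and 18 on the RPKM scales and 36 without Dp16 4 and Dp16 5. Males or females alone gave 0 in these 3. The joint test gave 15 with no low-count filter, 11 at a CPM of at least 1 in 6 libraries and 11 with age. The sex interactions gave 10 (Dp16-2xIFNRs) and 52 (Dp16) by DESeq2, and 1 each by limma-voom, with no filter and under the description number; limma on log2(RPKM + 0.1) gave 1 for Dp16-2xIFNRs. The cause was not tested.

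Chains called in Dp16-2xIFNRs against wild-type were 1 by DESeq2, 2 with only those groups and 1 without Dp16 4 and Dp16 5, and against Dp16 1 by DESeq2. Between the sexes they were 7 by limma-voom and 2 on log2(RPKM + 1). Those 2 were Col3a1 and Col1a1, with adjusted p of 0.0302 and 0.0483 by limma. On that scale limma gave adjusted p of 0.0553 for Col14a1, 0.0550 for Col15a1, 0.0942 for Col6a3 and 0.116 for Col6a5. Leaving out 1 library each gave 4 to 48 genes in Dp16-2xIFNRs against wild-type, 1 to 9 in Dp16 against wild-type, 3 to 22 jointly, 0 to 1 in the Dp16 interaction, and 2 to 6 chains between the sexes.

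The title numbers did not pair the samples. With the replicate block 0 genes were called in Dp16-2xIFNRs against Dp16, 21 in Dp16-2xIFNRs against wild-type and 5 in Dp16 against wild-type, with 0 chains in each genotype comparison, and 5 chains between the sexes. Libraries sharing the number in their description correlated (7 pairs, r from 0.262 to 0.446, all of the same sex; 3 over 0.1 with sex removed). With that number as a random block, 1 gene in Dp16-2xIFNRs against Dp16, 66 in Dp16-2xIFNRs against wild-type, 15 in Dp16 against wild-type, 49 in the joint test and 1 chain between the sexes (Col6a5) were called.

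Signs turned in Dp16 against wild-type for Col18a1 (log2 -0.0173 by limma-voom, -0.331 in males), Col4a2 (-0.354 in males), Col5a3 (-0.665 in males), Col6a5 (-0.0943 without Dp16 4 and Dp16 5) and Col15a1 (0.0221 by limma-voom, 0.242 without a sex term, 0.873 in females, 0.0462 on log2(RPKM + 1)), and for Col6a2 in Dp16-2xIFNRs against wild-type (-0.0143 in females). Leaving out 1 library gave -0.138 to 0.283 for Col18a1, -0.472 to 0.0974 for Col15a1, -0.0724 to 0.649 for Col5a3 and -0.185 to 0.825 for Col6a5 in Dp16 against wild-type, and -0.00537 to 0.36 for Col1a1 in Dp16-2xIFNRs against wild-type. Log2 ratio differences ran from -0.166 to 0.0143 (Col1a1 to Col1a2), -0.322 to 0.837 (Col5a1 to Col5a2) and -0.281 to 0.0375 (Col6a1 to Col6a2) against Dp16, from -0.385 to 0.774 and -0.204 to 0.0584 for the collagen V and VI pairs in Dp16-2xIFNRs against wild-type, and from -0.24 to 0.0502, -0.237 to 0.134 and -0.113 to 0.194 for the 3 pairs in Dp16 against wild-type. At this depth 11 chains with at least 10 counts could not be tested.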
